A study of Mus musculus with 21 samples.

Results

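RNA levels in the mouse dentate gyrus were compared between mice with the Nogo receptor transgene switched on and monotransgenic controls, over 3 sets of arrays, to find differences that the sets share. The labels name experiment 2 alone: set 1 and set 3 are names given here to the arrays with other forms of title and description. The comparison used 18 of the 21 Affymetrix arrays of the series, 9 with the transgene on and 9 monotransgenic, and all 12526 genes above a limit on dim signals were compared, with the sign of the difference followed from set to set. The 3 arrays of bitransgenic mice held on a doxycycline diet were left out of the comparison. Values are linear probe set intensities as deposited, and differences are on the scale of log2(intensity + 16) after quantile normalization, so that a difference of 1 is close to a doubling for bright genes and understates the change of dim ones.

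The transgene encodes NgR, the product of *Rtn4r*, under a tetracycline-responsive promoter that the transactivator tTA switches on when doxycycline is absent. In set 1, bitransgenic mice from which doxycycline had been removed (pTRE/NgR in the labels) were compared with monotransgenic NgR mice, which lacked tTA and had also been taken off doxycycline. In experiment 2, bitransgenic mice on water that had never received doxycycline were compared with monotransgenic mice on water. In set 3, bitransgenic mice were compared with monotransgenic mice, and the labels used here give no treatment. Each of these 6 groups held 3 arrays. Within every set the bitransgenic mice carried a transgene that their controls lacked, which in set 1 is tTA. Effects of that difference in genotype and of NgR expression cannot be told apart in this comparison. The labels do not say which of the transgenes the monotransgenic mice of experiment 2 and set 3 carried, which promoter drives tTA, or the age, sex or strain of the mice. They do not say that each array came from a separate animal, which means that p-values reflect only how these arrays vary, and 3 arrays in a group limit the precision of each value. In tissue RNA of this kind, fewer cells of a type and less RNA per cell cannot be told apart.

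NgR is a membrane-anchored receptor on neurons that binds Nogo-A, myelin-associated glycoprotein and oligodendrocyte myelin glycoprotein. With co-receptors such as *Lingo1* it signals through RhoA to limit the growth of axons, and in the hippocampus it limits synapse formation and the plasticity that follows activity. The dentate gyrus is the input region of the hippocampus. Its main cells are the granule neurons, whose axons, the mossy fibres, run to CA3.

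All 22 listed markers of dentate granule cells were above the limit on dim signals, among them *Calb1*, *C1ql3*, *Dsp* and *Prox1* with mean intensities of 5619, 4287, 4031 and 638 over the 18 arrays. So were 15 of 20 listed markers of CA3, CA2 and hilar mossy cells, 8 of 10 of CA1 and 5 of 11 of choroid plexus. Intensities of different probe sets cannot be set against each other, so these values do not give the share of neighbouring regions in the tissue. All pairs of arrays correlated between 0.923 and 0.991, and none were identical. The beta-actin control probes had more 3' than 5' signal on every array. The excess was 4.79 to 6.24 log2 units on the arrays of experiment 2 and 4.11 to 5.04 on those of sets 1 and 3. Such a ratio is only a rough sign of RNA integrity. The Gapdh control probes did not set experiment 2 apart. Their ratio was 4.04 to 4.65 there, 4.09 to 4.32 in set 1 and 4.42 to 4.70 in set 3. The median SD of a gene within a group was 0.297 in the bitransgenic and 0.281 in the monotransgenic arrays of experiment 2, while the groups of sets 1 and 3 had 0.145 to 0.163. *Xist*, the RNA of the inactive X chromosome, lay between 2361 and 4750 on the arrays of experiment 2 and between 9.59 and 33.7 elsewhere, so sex differed between the sets and not between the groups within a set. For many genes given below, although not for *Rtn4r* or *Lrrtm1*, 3 monotransgenic arrays lay at or near the level of the bitransgenic arrays: replicates 1 and 2 of experiment 2 and replicate 2 of set 3. The last of these shares the first part of its title with a bitransgenic array of set 3, replicate 1, as do monotransgenic and bitransgenic replicates 3, and the labels do not say what that part marks. In experiment 2 the titles of monotransgenic replicates 1 and 2 and of the bitransgenic arrays end in _le1. The title of monotransgenic replicate 3 lacks that ending, which all titles of set 3 carry and those of set 1 do not. What it marks is not given in the labels, and its relation to the split was not tested. Values without each of the 3 arrays are given for some of the genes described in detail, and counts with gene names for others. These arrays were picked after such genes were seen, so larger differences without them in those genes follow from that choice.

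*Rtn4r* had intensities of 1469, 329 and 254 after doxycycline removal in set 1, against 63.8, 98.4 and 79.0 in monotransgenic mice. In experiment 2 it had 605, 365 and 753 in bitransgenic and 114, 185 and 122.8 in monotransgenic mice, and in set 3 it had 672, 755 and 562 in bitransgenic and 133, 112 and 85.9 in monotransgenic mice. Every array with the transgene on lay above every monotransgenic array of any set. *Rtn4r* rose by 2.28 ± 0.24 log2 units over the 3 sets (standard error, 9 arrays each; limma adjusted p = 3.67e-05), which is 4.87-fold, with a 95% interval of 1.78 to 2.79 on the log2 scale. The differences within set 1, experiment 2 and set 3 were 2.44, 1.93 and 2.47, each with a standard error of 0.42. The exact permutation test over the 8000 relabelings within sets gave p = 0.00025, two-sided, the smallest it can give. *Rtn4r* passed in each fit without 1 array, but without the whole of set 3 it stood 2.19 higher at an adjusted p of 0.0504.

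**Figure D1:**
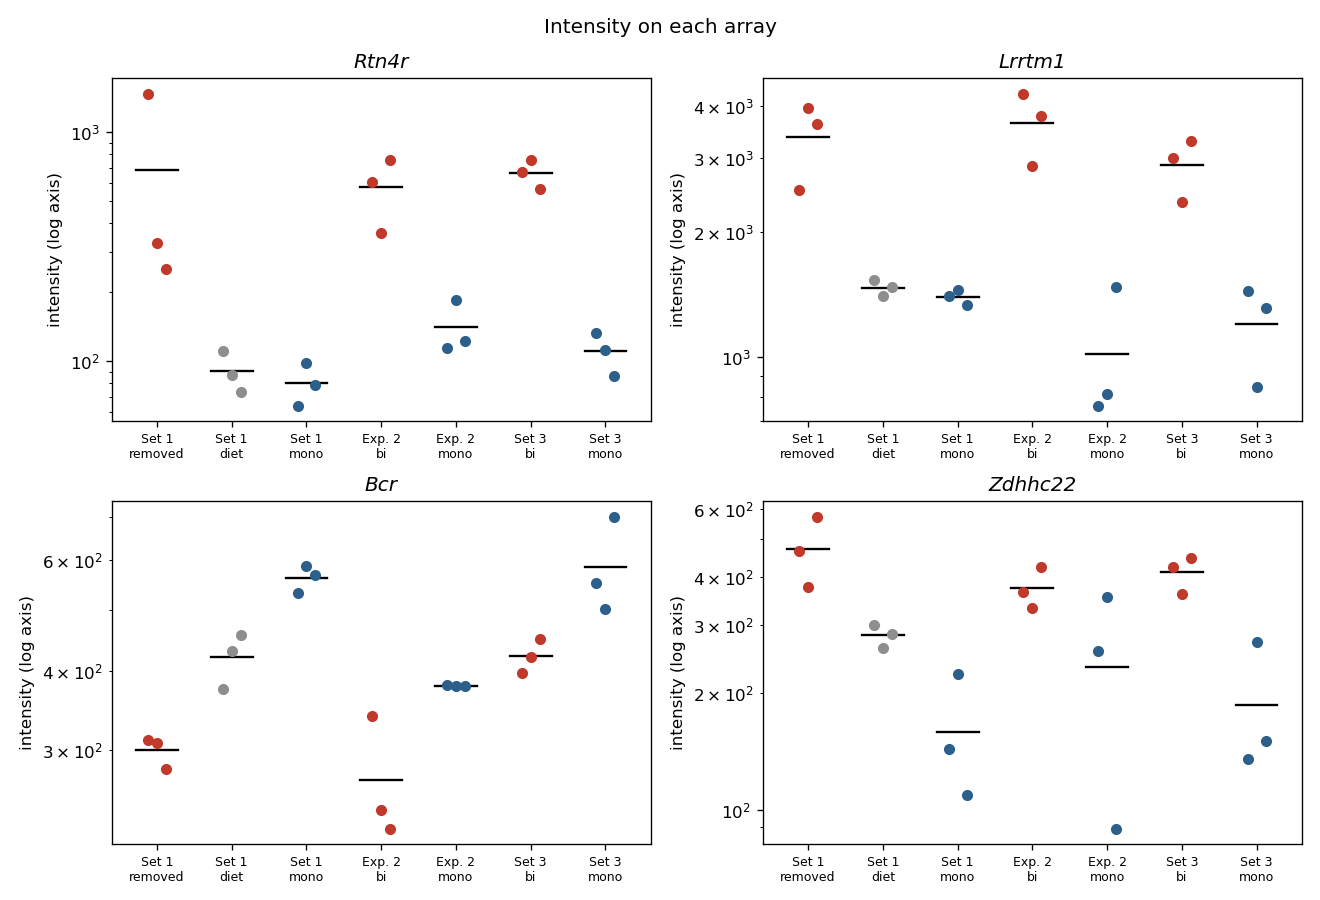
Intensity of 4 genes on each array on a log axis, with group means as horizontal bars; red points are arrays with the transgene on, blue are monotransgenic, and grey are the doxycycline diet arrays left out of the comparison. *Rtn4r* and *Lrrtm1* separate red from blue over all sets, and for both genes the diet arrays lie at the level of the monotransgenic arrays of set 1.

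Beyond the transgene's own gene, *Lrrtm1* rose and *Bcr* fell. These were the only other calls at an adjusted p under 0.05: 3 of 12526 genes passed (0.024%), 2 higher (0.016%) and 1 lower (0.00798%). At an unadjusted p under 0.05 there were 1276 genes (10.2%), of which 716 were higher (5.72%) and 560 lower (4.47%). *Lrrtm1* encodes a leucine-rich transmembrane protein of excitatory synapses that binds neurexins and organizes presynaptic contacts. *Bcr* encodes a protein that turns off the small GTPase Rac and that is also known from the leukaemia fusion with Abl.

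*Lrrtm1* and *Bcr* are shown by the 300 bases around their start sites, 250 before and 50 after, since they are the genes that passed apart from the transgene's own. The sequences are from RefSeq on GRCm38.p6, plus strand, at chr6:77242227-77242526 for *Lrrtm1* and chr10:75060646-75060945 for *Bcr*. Capitals mark the GC box GGGCGG on either strand.
Lrrtm1: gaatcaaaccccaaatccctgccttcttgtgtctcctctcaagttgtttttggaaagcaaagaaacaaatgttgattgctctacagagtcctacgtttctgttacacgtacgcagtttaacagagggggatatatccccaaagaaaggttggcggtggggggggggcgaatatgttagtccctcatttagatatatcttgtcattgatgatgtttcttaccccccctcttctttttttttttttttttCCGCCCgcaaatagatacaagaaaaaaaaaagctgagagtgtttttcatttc
Bcr: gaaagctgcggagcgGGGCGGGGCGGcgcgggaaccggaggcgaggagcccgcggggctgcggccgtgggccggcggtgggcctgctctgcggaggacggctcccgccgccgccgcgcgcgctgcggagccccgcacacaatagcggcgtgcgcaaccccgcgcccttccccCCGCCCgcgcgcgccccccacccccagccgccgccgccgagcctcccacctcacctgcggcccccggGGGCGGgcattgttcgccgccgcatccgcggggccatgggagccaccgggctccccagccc
The windows differ in base composition: G and C make up 40.7% of the *Lrrtm1* window and 82.3% of the *Bcr* window. The GC box occurs 1 time in the first and 4 times in the second, where the matches at positions 16 and 21 overlap, and 35.7% of 32851 promoter windows of this length hold it. Neither window holds the CREB site core TGACG, the E-box CACGTG or the TATA box TATAAA on either strand, which occur in 20.8%, 7.15% and 13.6% of these windows. These are matches of letters, not sites shown to be bound.

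*Lrrtm1* had intensities of 2516, 3965 and 3631 after doxycycline removal, against 1401, 1446 and 1330 in the monotransgenic mice of set 1. In experiment 2 it had 4282, 2869 and 3782 in bitransgenic and 762, 813 and 1470 in monotransgenic mice, and in set 3 it had 3007, 2356 and 3297 in bitransgenic and 1439, 848 and 1313 in monotransgenic mice. No array crossed over on the probe set used: the lowest of the 9 with the transgene on was 2356 and the highest of the 9 monotransgenic arrays 1470. Another probe set ran from 93.0 to 657 with the transgene on and from 79.3 to 177 in monotransgenic mice, so its ranges overlapped. The last was apart, at 265 to 1058 against 34.8 to 239. *Lrrtm1* rose by 1.42 ± 0.14 log2 units, 2.67-fold (limma adjusted p = 3.67e-05; 95% interval 1.11 to 1.72), at 1.21, 1.70 and 1.34 within the 3 sets (standard error 0.25 each). The exact permutation p was again 0.00025, the smallest possible. The 3 monotransgenic arrays that lay near the bitransgenic level in other genes were the lowest here, at 762, 813 and 848. Without each of them in turn *Lrrtm1* rose by 1.34, 1.36 and 1.35. All 3 probe sets of the gene stood higher in every set, with mean differences of 1.41, 2.11 and 1.42, and the gene passed in all 19 other settings and in all 18 fits without 1 array (1.27 to 1.65 over all of them).

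The arrays also measured the relatives and the host gene of *Lrrtm1*. *Lrrtm1* lies within an intron of the catenin gene *Ctnna2*, on the other strand. *Ctnna2* went the other way, 0.65 lower (−1.16, −0.42 and −0.37 in the 3 sets), and did not pass (adjusted p = 0.189). *Lrrtm2* stood 0.26 higher, at 713, 670 and 604 after removal against 567, 556 and 624 in monotransgenic mice of set 1, at 732, 471 and 762 in bitransgenic against 581, 555 and 529 in monotransgenic mice of experiment 2, and in set 3 at 692, 689 and 907 against 503, 566 and 595. Its groups were apart in set 3 alone. *Lrrtm3* stood 0.54 lower and *Lrrtm4* 0.08 lower, and none of these relatives passed. Of the 22 leucine-rich synapse organizers measured, *Lrrtm1* was the 1 that rose, 21 did not pass, and 8 were higher and 14 lower with a median of −0.02. Over all genes the median difference was 0.01, with 6476 higher and 6050 lower. That split depends on the scaling: 5262 were higher and 7259 lower on the deposited scale, and 7312 higher and 5209 lower with centring on the 75th percentile, with medians of −0.03 and 0.03.

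*Bcr* had intensities of 311, 307 and 281 after removal, against 531, 586 and 567 in the monotransgenic mice of set 1. In experiment 2 it had 340, 241 and 225 in bitransgenic and 380, 379 and 379 in monotransgenic mice, and in set 3 it had 397, 421 and 449 in bitransgenic and 551, 502 and 701 in monotransgenic mice. The groups did not overlap in any set, although the sets differed in level, so that the bitransgenic arrays of set 3 lay above the monotransgenic arrays of experiment 2. *Bcr* fell by 0.59 ± 0.09 log2 units, 1.51-fold (limma adjusted p = 0.0179), at −0.85, −0.46 and −0.46 within the sets (standard error 0.15 each; exact permutation p = 0.00025). A second probe set above the limit gave −0.51, −0.13 and 0.12, so the fall was not shared by both. The call was lost in 9 of the 18 fits without 1 array, among them each of the 6 arrays of set 1, replicate 3 of the bitransgenic arrays of experiment 2, and in set 3 bitransgenic replicate 1 and monotransgenic replicate 3 (adjusted p from 0.0598 to 0.0701).

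Agreement of sign over the whole transcriptome was limited. Of 12526 genes 3711 (29.6%) had one sign in all 3 sets, 2088 higher and 1623 lower. Signs matched in 57.9% of genes between set 1 and experiment 2, in 52.0% between set 1 and set 3, and in 49.4% between experiment 2 and set 3. As a description across genes, which are not independent replicates, Pearson's r between the differences was 0.21, 0.32 and 0.08 for these pairs of sets, and Spearman's rho was 0.20, 0.13 and −0.01. The sets have no arrays in common.

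Agreement was higher among large differences, and it was uneven between sets. Among the 122 genes that differed by at least 1 log2 unit in set 1, 73.0% had the same sign in all sets, and 93.4% kept it in set 3. Among the 63 genes of that size in set 3 the share was 84.1%. Among the 97 genes of that size in experiment 2 it was 37.1%, and 44.3% had the same sign in set 3. By the mean over the sets, 258 genes reached 0.5 in size, 120 higher and 138 lower, of which 238 had one sign in all sets. All 34 genes that reached 1 did so, 17 higher and 17 lower, although a mean of that size itself favours one sign.

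**Figure D2:**
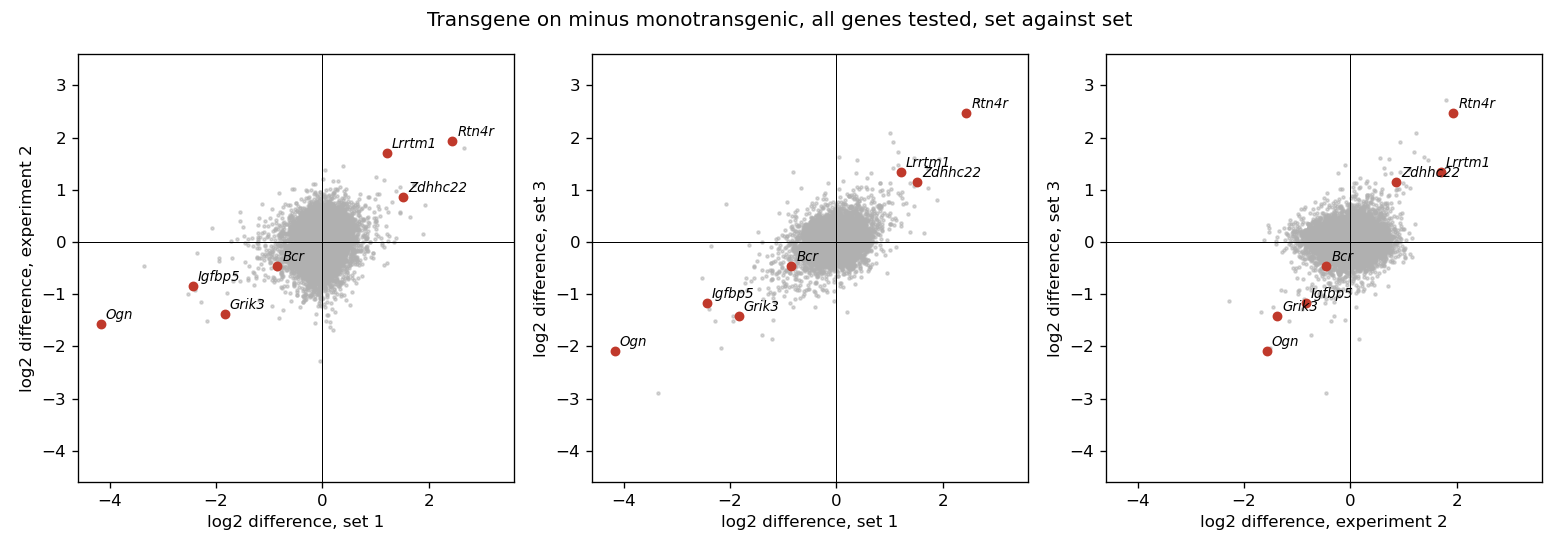
Log2 difference, transgene on minus monotransgenic, of every gene in one set (x axis) against another (y axis), with 7 genes marked in red. *Rtn4r* and *Lrrtm1* lie at the upper right in each panel, *Ogn*, *Igfbp5* and *Grik3* at the lower left, and the grey cloud of 12526 genes has r of 0.21, 0.32 and 0.08 in the 3 panels.

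In 17 genes (0.136%) the normalized values of the groups did not overlap, in the same direction, in any of the 3 sets: 11 higher (0.0878%) and 6 lower (0.0479%). Within single sets such separation was common, at 22.2% of genes in set 1, 8.69% in experiment 2 and 13.5% in set 3. *Rtn4r*, *Lrrtm1* and *Bcr* are 3 of the 17. The other 14 did not pass, with adjusted p from 0.0615 to 0.347. On the deposited intensities 10 of the 17 were separate in all sets, while *Blmh*, *Gdap2*, *Pgap4*, *Tbc1d19*, *Tmem86a*, *Zcchc7* and *Zdhhc22* overlapped in at least 1 set.

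*Zdhhc22*, a member of the family of enzymes that attach palmitate to proteins, came nearest to passing. It had intensities of 467, 377 and 571 after removal against 144, 224 and 109 in monotransgenic mice of set 1, and 365, 333 and 425 in bitransgenic against 258, 354 and 89.2 in monotransgenic mice of experiment 2. Set 3 gave 423, 360 and 448 in bitransgenic against 135, 272 and 151 in monotransgenic mice. The deposited intensities overlapped in experiment 2, where 1 monotransgenic array stood at 354, and were apart in the other sets. It stood 1.18 ± 0.21 log2 units higher (adjusted p = 0.0615), at 1.52, 0.86 and 1.16, and it passed in 7 of 19 other settings and 3 of 18 fits without 1 array, those without monotransgenic replicate 1 (1.26, adjusted p = 0.0185) or 2 (1.31, 0.00568) of experiment 2 or 2 of set 3 (1.26, 0.00609).

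The other 8 that stood higher in every set included *Mpp3*, a membrane scaffold protein (0.47 higher), *Reep5*, which shapes the endoplasmic reticulum (0.20), the cysteine peptidase gene *Blmh* (0.20) and *Rprd1a*, which acts on RNA polymerase II (0.13). *Mpp3* had 381 to 771 on the 9 arrays with the transgene on (median 552) and 262 to 515 on the monotransgenic arrays (median 365). *Tmem86a*, *Tbc1d19*, *Pgap4* and *Gdap2* stood 0.22 to 0.29 higher. *Blmh* had 2923 to 4350 on the arrays with the transgene on and 2650 to 3898 on the monotransgenic arrays, so its ranges overlapped.

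Of the 5 lower genes of this kind that did not pass, *Igfbp5*, which encodes a binding protein of insulin-like growth factors, differed most. It had 83.1, 407 and 232 after removal against 1262, 1510 and 887 in monotransgenic mice of set 1, and 176, 182 and 188 in bitransgenic against 195, 253 and 838 in monotransgenic mice of experiment 2. The values of set 3 were 252, 514 and 418 in bitransgenic against 1023, 536 and 1093 in monotransgenic mice. The gap was wide in set 1 and narrow in the other sets, where single monotransgenic arrays lay just above the bitransgenic ones. It stood 1.48 ± 0.31 log2 units lower (adjusted p = 0.0971), at −2.44, −0.84 and −1.16, and its second probe set gave −1.04, 0.95 and −0.37. Without monotransgenic replicate 1 or 2 of experiment 2, or 2 of set 3, *Igfbp5* fell, by 1.63, 1.60 and 1.60 (adjusted p = 0.0356, 0.0289 and 0.0111). *Zcchc7*, part of a complex that marks RNA for decay, stood 0.31 lower (adjusted p = 0.0954) and passed without replicate 2 of experiment 2 (0.0294) or of set 3 (0.0152). The membrane protein gene *Bves* stood 0.59 lower, the glycogen synthase gene *Gys2* 0.35 and the lipid scramblase gene *Ano6* 0.24. Of the 21 genes named by rule, 3 of the 11 higher had all diet arrays above the monotransgenic arrays of set 1, beside 7.21% of all genes, and 6 of the 10 lower had all diet arrays below them, beside 7.3%. These genes were chosen by differences from those same monotransgenic arrays, so shares above those of all genes follow in part from the choice. *Bves* and *Gys2* had mean log2 levels of 5.04 and 4.90, next to the limit of 4.89, so the sizes of their differences are uncertain.

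**Figure D3:**
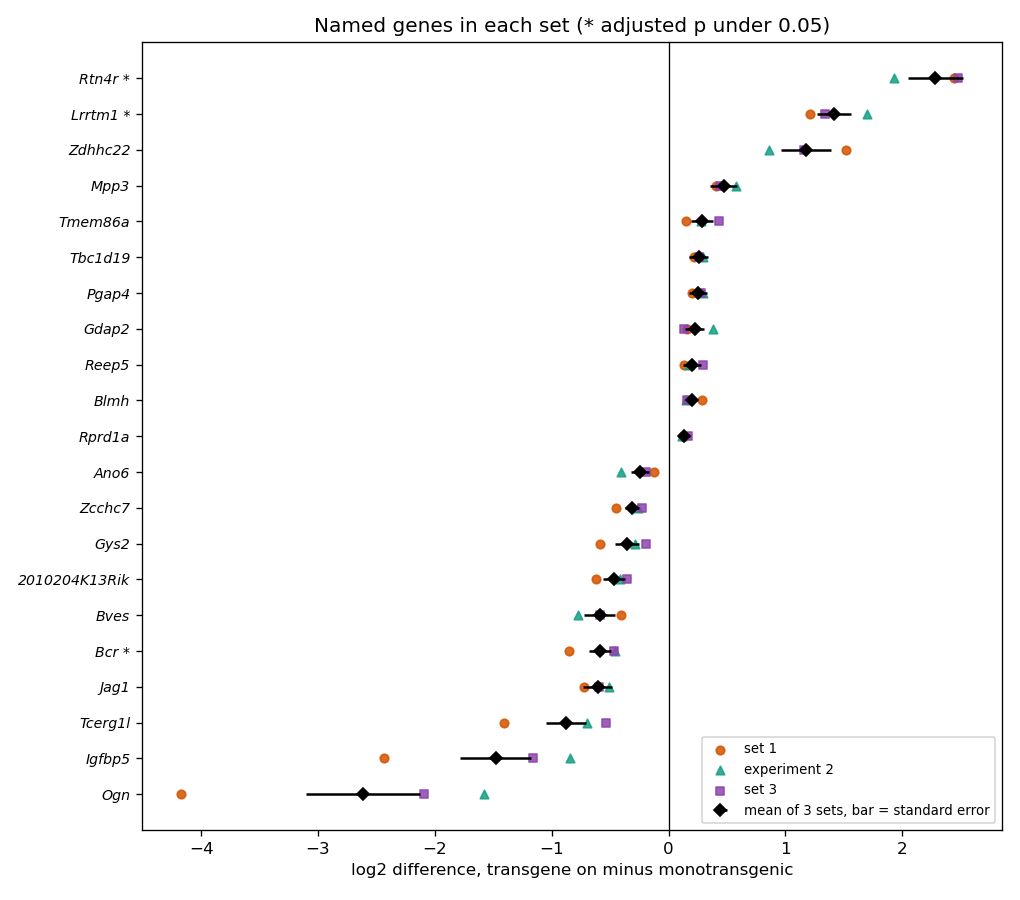
Log2 difference, transgene on minus monotransgenic, in each set (coloured symbols) and over the 3 sets (black diamonds with the standard error as bars) for the 21 genes named by the rule. *Rtn4r*, *Lrrtm1* and *Bcr*, marked with an asterisk, passed, and the 3 sets lie on one side of 0 for each gene shown.

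At an adjusted p under 0.1 there were 28 genes (0.224%), 14 higher and 14 lower (0.112% each). Genes of this group that were not chosen by rule were picked after their values were seen. *Ogn*, which encodes a small proteoglycan of connective tissue and the meninges, stood 2.61 ± 0.49 log2 units lower (adjusted p = 0.0827), and 4.17, 1.58 and 2.10 lower within the sets. A second probe set above the limit gave smaller differences, −1.24, −0.77 and −0.76. It had 11.7, 26.8 and 24.2 after removal against 556, 728 and 636 in monotransgenic mice of set 1, and 54.5, 27.9 and 71.9 in bitransgenic against 153, 79.6 and 526 in monotransgenic mice of experiment 2. In set 3 it had 24.2, 143 and 44.9 in bitransgenic against 824, 41.2 and 652 in monotransgenic mice. The monotransgenic arrays split into high values near or above 500 and low values below 160, with the low ones in replicates 1 and 2 of experiment 2 and replicate 2 of set 3. Without any 1 of these 3 arrays *Ogn* fell, by 2.72, 2.87 and 3.01 (adjusted p = 0.0415, 0.0137 and 0.000727). They are the monotransgenic arrays with low *Ogn*, so passing without them follows from their choice and is no added support. The diet arrays of set 1 had 8.54 to 26.8, beside 11.7 to 26.8 after removal.

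The enkephalin precursor gene *Penk* had 57.5, 106 and 94.5 after removal against 459, 577 and 566 in monotransgenic mice of set 1, and 111, 67.7 and 62.7 in bitransgenic against 89.6, 108 and 548 in monotransgenic mice of experiment 2. Its set 3 intensities were 75.9, 235 and 116 in bitransgenic against 614, 122.5 and 484 in monotransgenic mice. The groups were apart in set 1 alone, and it stood 1.53 lower over the sets (adjusted p = 0.0977). On the diet arrays of set 1, left out of the comparison, *Penk* had 54.6, 80.8 and 61.0. These also lay below the monotransgenic arrays of set 1 and overlapped the arrays after removal. The kainate receptor gene *Grik3* stood 1.54 lower and the NMDA receptor subunit gene *Grin3a* 1.04 higher. *Pde4b*, which breaks down cyclic AMP, stood 1.19 higher, the GTPase regulator genes *Arhgap29* and *Arhgap42* 0.94 and 0.64 higher, and *Amph*, a protein of synaptic vesicle retrieval, 0.38 higher. *Jag1*, a ligand of Notch receptors, stood 0.61 lower, *Cited2*, a transcriptional cofactor, 0.74, *Tshz1* 1.00 and the actin-binding protein gene *Tmsb10* 1.17.

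Each monotransgenic array was set against the range of the bitransgenic arrays of its own set over these 28 genes. In set 1 the 3 monotransgenic arrays reached that range in 1, 2 and 2 genes. In experiment 2 they did so in 8, 6 and 0 genes, and in set 3 in 0, 13 and 0. *Rtn4r*, *Lrrtm1*, *Bcr* and *Zdhhc22* are not among the genes in which any of these arrays reached that range, on normalized values. Left out in turn, replicates 1 and 2 of experiment 2 gave 23 genes past the threshold (14 higher, 9 lower) and 78 (38 higher, 40 lower), and replicate 2 of set 3 gave 204 (105 higher, 99 lower). *Rtn4r*, *Lrrtm1* and *Bcr* passed in each of these 3 fits. Of the 28 genes 16 passed without replicate 1 of experiment 2, 25 without replicate 2 (all but *Arhgap42*, *Erdr1* and *Pgpep1*) and all 28 without replicate 2 of set 3. Those that passed in all 3 fits were 14: beside the 3 calls *Zdhhc22*, *Igfbp5*, *Ogn*, *Penk*, *Pde4b*, *Amph*, *Arhgap29*, *Megf11*, *Tcerg1l*, *Tex15* and *2010204K13Rik*. These arrays were picked for their overlap in genes such as these, so the higher counts without them are no added support. Why they differ from the others of their label was not tested, and no array was moved to another group.

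**Figure D4:**
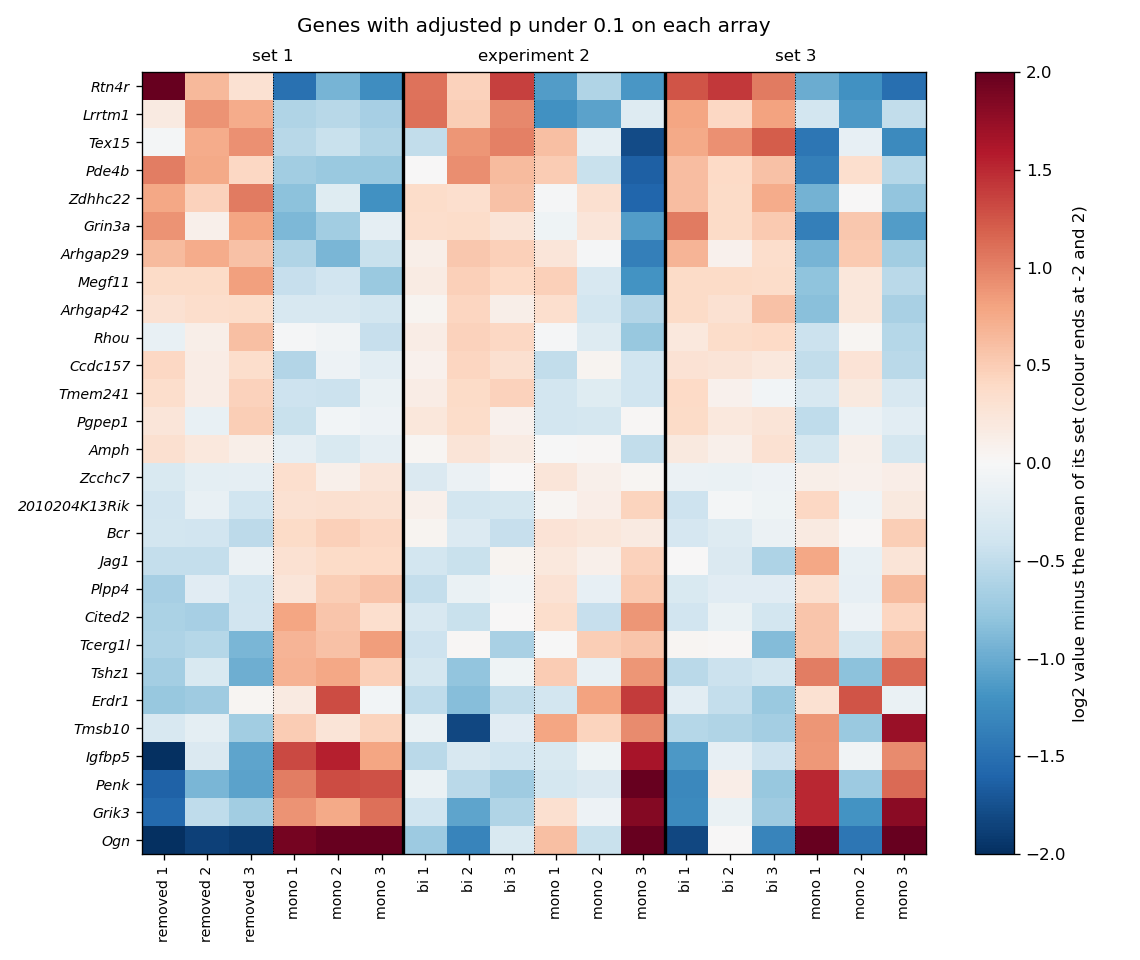
Normalized log2 value of the 28 genes with an adjusted p under 0.1 on each of the 18 arrays, as the difference from the mean of its set (colour ends at −2 and 2), with the arrays with the transgene on left of the monotransgenic ones in each set. Monotransgenic replicates 1 and 2 of experiment 2 and 2 of set 3 are paler than their neighbours, or have the colour of the bitransgenic arrays, in many rows, but not for *Rtn4r* or *Lrrtm1*.

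Large differences in every set were found in 12 genes that reached 1 log2 unit in each with one sign, 8 higher and 4 lower. Beside *Rtn4r*, *Lrrtm1*, *Pde4b*, *Grik3* and *Ogn* these were *Blnk*, an adaptor of B cell receptor signalling (2.40 higher), the protocadherin gene *Pcdh11x* (1.44), the protease gene *Prss23* (1.41), *Mamdc2* (1.36), *Tbr1*, a transcription factor of glutamatergic neurons (1.29), *Cxcl12*, a chemokine (1.65 lower), and *Doc2b*, a calcium sensor of transmitter release (1.91 lower). None of these 7 passed (adjusted p from 0.105 to 0.176). They are set out here because they are large and because their arrays fall into separate levels.

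*Doc2b* had 358, 698 and 611 after removal against 2636, 2650 and 2194 in monotransgenic mice of set 1, and 142, 81.1 and 127 in bitransgenic against 136, 158 and 2273 in monotransgenic mice of experiment 2. Set 3 gave 81.6, 236 and 172 in bitransgenic against 1914, 68.9 and 1700 in monotransgenic mice. Of the 9 monotransgenic arrays 6 lay at 1700 or above and 3 below 160, and in set 1 the arrays after removal lay between these levels. *Tbr1* differed in the opposite direction, with 710, 752 and 954 after removal against 210, 212 and 274 in set 1, and 933, 1588 and 1171 in bitransgenic against 1132, 633 and 195 in monotransgenic mice of experiment 2. In set 3 it had 981, 851 and 655 in bitransgenic against 184, 1198 and 282 in monotransgenic mice. Monotransgenic replicate 1 of experiment 2 overlapped the bitransgenic range in 5 of the 12 genes, replicate 2 in 3 and replicate 2 of set 3 in 8, while the other 6 monotransgenic arrays overlapped in none. Without replicate 2 of set 3 all 12 genes passed. *Blnk* then rose by 2.79 (adjusted p = 0.00609) and *Tbr1* by 1.53 (0.0053), while *Cxcl12* and *Doc2b* fell by 2.04 and 2.33 (0.00609 and 0.00906). Replicate 2 of set 3 was picked after its overlap in 8 of the 12 genes was seen, so passing without it is no added support. Without monotransgenic replicate 1 or 2 of experiment 2, *Cxcl12*, *Doc2b*, *Mamdc2*, *Pcdh11x* and *Prss23* did not pass (limma adjusted p from 0.0559 to 0.128). Of these 2 fits, *Blnk* passed only without replicate 2 (0.0346) and *Tbr1* only without replicate 1 (0.0488).

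In the NgR pathway no gene passed other than *Rtn4r*. Of 14 members measured, *Rtn4r* rose and 13 did not pass, with 4 higher, 10 lower and a median of −0.11. Among receptors, the relatives *Rtn4rl1* and *Rtn4rl2* stood 0.19 lower and 0.14 higher, and *Ptprs*, a receptor for chondroitin sulfate proteoglycans, 0.23 lower (−0.04, −0.64 and −0.01). Among co-receptors, *Lingo1* stood 0.13 lower and *Tnfrsf19* 0.14 higher. Among ligands, *Rtn4*, which encodes Nogo, differed by 0.04, *Omg* by −0.16 and *Mag* by −0.19. The standard errors of these differences ran up to 0.20, against 0.24 for *Rtn4r* itself.

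Synaptic partners of the leucine-rich organizers were balanced in direction, with 10 of 20 neurexins, neuroligins and partners higher, 10 lower and none past the threshold. Beyond the members of lowest p in each list, genes named here and in the lists below were picked after their values were seen. *C1ql2* and *C1ql3*, secreted synaptic proteins of the mossy fibres, stood 1.24 and 0.38 lower, *Cadm1*, a synaptic adhesion protein, 0.25 lower and *Nrxn3* 0.29 higher. *C1ql2* had 290, 297 and 210 after removal against 924, 1105 and 887 in monotransgenic mice of set 1, and 257, 156 and 210 in bitransgenic against 136, 442 and 1234 in monotransgenic mice of experiment 2. In set 3 it had 201, 289 and 353 in bitransgenic against 886, 135 and 1132 in monotransgenic mice. It was separate in set 1, and in the other sets 1 monotransgenic array lay below the bitransgenic ones. Of 25 scaffold and synaptic vesicle genes 12 were higher and 13 lower, with *Homer2*, a postsynaptic scaffold, at 0.90 higher (1.46, 0.57 and 0.68; adjusted p = 0.13) and the core genes *Syp*, *Snap25* and *Slc17a7* within 0.03 of no difference.

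In none of the receptor and channel lists did a gene pass. Of 28 glutamate receptor genes 10 were higher and 18 lower (median −0.10). After *Grik3* and *Grin3a*, the metabotropic receptor gene *Grm8* (0.49 higher) and the kainate receptor auxiliary gene *Neto1* (0.51 higher) had the lowest p. The AMPA receptor genes *Gria1*, *Gria2* and *Gria3* stood at −0.19, 0.03 and −0.07. Without monotransgenic replicate 2 of experiment 2, and without that of set 3, *Grin3a* rose and *Grik3* fell. Of 8 GABA receptor genes 3 were higher and 5 lower, and the sign of their median turned with centring on the 75th percentile (−0.09, against 0.01 then). *Gabrd*, the subunit of extrasynaptic receptors on granule cells, stood 0.51 lower (−0.77, −0.68 and −0.09).

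Of 27 potassium channel genes 9 were higher and 18 lower, with the channel subunit gene *Dpp10* 0.54 lower (−1.01, −0.33 and −0.27) and *Kcnab1* 0.28 higher. Of 22 calcium, sodium and HCN channel genes 12 were higher and 10 lower, among them *Cacna2d3* (0.41 higher), *Scn4b* (0.35) and *Hcn2* (0.38), each of one sign in all sets. None of either list passed. Genes of axon growth were split, with 12 of 22 higher: the growth-associated genes *Marcksl1* and *Gap43* stood 0.70 and 0.28 lower and the tubulin regulator gene *Stmn2* 0.48 higher. *Marcksl1* had one sign in all sets (−0.79, −0.61 and −0.72; adjusted p = 0.185).

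Immediate early genes, whose transcription follows neuronal firing, showed no common direction, with 12 of 25 higher and 13 lower and none past the threshold. *Fos*, *Arc* and *Npas4* stood 0.06, 0.02 and 0.33 higher, and *Jun*, *Fosl2* and *Nr4a2* 0.32, 0.45 and 0.57 lower. *Klf10* and *Inhba*, which are also genes of TGF-beta and activin signalling, stood 0.63 and 0.95 higher, but chiefly in set 1. *Klf10* had 605, 612 and 554 after removal against 179, 289 and 211 in monotransgenic mice of set 1, while in experiment 2 it had 159, 233 and 208 in bitransgenic against 232, 196 and 191 in monotransgenic mice. Its set 3 intensities were 268, 297 and 375 in bitransgenic against 168, 283 and 199 in monotransgenic mice. The groups were apart in set 1 and overlapped in the other sets. Without experiment 2 both genes passed, in a fit that gave 35 higher and 23 lower calls among 12526 genes. That fit was chosen for display after the values were seen, so passing in it is no added support.

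Activin and TGF-beta genes were nearly balanced, with 12 of 23 higher, 11 lower and none past the threshold, while 10 had an unadjusted p under 0.05, 8 higher and 2 lower, beside 10.2% of all genes (5.72% higher and 4.47% lower). The members were chosen with earlier results of these data known, so that share is not a test. The inhibitory Smad gene *Smad7* (0.31 higher), the ligand gene *Tgfb3* (0.48) and the feedback inhibitor *Pmepa1* (0.32) were higher in all sets, and the ligand gene *Tgfb2* (−0.49) and its receptor *Tgfbr2* (−0.28) lower in all sets. *Fst*, which binds activin, stood 1.01, 0.15 and 0.34 higher in the 3 sets. Neurotrophin genes gave 2 of 5 higher, with *Bdnf* at −0.03 and its receptor *Ntrk2* 0.21 higher (0.20, 0.21 and 0.22).

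Markers of dentate granule cells stood lower in 19 of 22 cases, with a median of −0.20 against 0.01 for all genes, and none passed. The medians within set 1, experiment 2 and set 3 were −0.28, −0.10 and −0.27, and 10 members were lower and 2 higher in all sets. At an unadjusted p under 0.05 there were 11 members, 2 higher and 9 lower, beside 10.2% of all genes. This list was chosen with earlier results of these data known, so the comparison is not a test. *Stxbp6*, a SNARE-binding protein, stood 0.45 lower and was even over the sets (−0.49, −0.41 and −0.44; adjusted p = 0.105), *Ntng1*, a synaptic adhesion gene, 0.81 lower and *Cntnap5a* 0.75 lower. Other members ranged widely. *Prox1* stood 0.22 lower (−0.19, 0.09 and −0.57), *Calb1* 0.15 and *Dsp* 0.10, while *C1ql2*, *Trpc6*, *Glis3* and *C1ql3* stood 1.24, 0.63, 0.45 and 0.38 lower. *Trpc6* and *Glis3* were not lower in experiment 2, and 3 of the 22 members were higher over the sets. The summed intensity of the 22 markers was 32112 to 39024 after removal against 39213 to 45476 in set 1, 38016 to 39391 in bitransgenic against 34135 to 46558 in monotransgenic mice of experiment 2, and 30090 to 33564 against 32140 to 42630 in set 3. The groups thus overlapped in experiment 2 and set 3. On the diet arrays of set 1 the sum was 36003 to 37651, also below the monotransgenic arrays of set 1 and within the range after removal. Without replicate 2 of the monotransgenic arrays of set 3, *C1ql2*, *C1ql3*, *Cntnap5a*, *Ntng1*, *Penk* and *Stxbp6* fell, and 18 of the 22 were lower. Without monotransgenic replicate 2 of experiment 2 the same genes except *C1ql2* fell, and without replicate 1 *Penk* alone did. Over all 12526 genes 99, 40 and 9 fell in these 3 fits. The arrays were picked for their overlap in such genes, so these calls are no added support.

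Markers of other cells were set beside these. Meningeal and fibroblast markers were lower in 8 of 9 cases (median −0.17), with *Ogn*, *Upk1b* and *Lum* 2.61, 0.88 and 0.53 lower, and *Upk1b* chiefly in set 1 (−2.36, −0.21 and −0.07). Their summed intensity was 321 to 416 after removal against 1269 to 1534 in set 1, 283 to 509 in bitransgenic against 531 to 1017 in monotransgenic mice of experiment 2, and 466 to 728 against 466 to 1745 in set 3. On the diet arrays of set 1 it was 413 to 667, also below the monotransgenic arrays of set 1. The defining markers *Dcn*, *Col1a2* and *Igf2* were at or near the limit, with means of 16.4, 17.0 and 14.9. The part of such cells in the difference of *Ogn* was not tested.

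Of 17 markers of oligodendrocytes and myelin 16 stood lower (median −0.19), but the median was −0.20 in set 1, −0.35 in experiment 2 and 0.02 in set 3, and only *Ermn*, *Mal* and *Cspg4* were lower in every set. *Mbp* stood 0.14 lower (−0.20, −0.33 and 0.10). Inhibitory neuron markers were lower in 12 of 14 cases (median −0.11), with the GABA transporter gene *Slc32a1* 0.40 lower, *Sst* 0.41 lower and *Cck* 0.45 higher. The counts for glia and vessels moved with the scaling: astrocyte markers were higher in 6 of 14 cases, microglia markers in 7 of 13 and endothelial and pericyte markers in 6 of 13, against 3, 2 and 4 on the deposited scale. *Gfap* stood 0.37 higher (0.64, 0.23 and 0.25; adjusted p = 0.665). Neurogenesis and proliferation genes gave 8 of 17 higher, with *Mcm6*, a DNA replication gene, 0.66 lower and *Dcx*, a marker of young neurons, 0.35 higher. None of these lists had a member past the threshold.

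Markers of CA3, CA2 and hilar mossy cells gave 6 of 15 higher and CA1 markers 4 of 8, with none past the threshold. *Ociad2* and *Bok* stood 0.87 and 0.68 higher and *Grp* 1.41 lower (−2.54, −1.01 and −0.70). Among 14 markers of thalamus, neocortex and striatum 6 were higher, and *Tbr1* was the 1 with a large difference. The 5 measured genes of the chromosome 12 segment around *Vipr2* were all lower (median −0.18), although 1 was higher with centring on the 75th percentile, and *Wdr60* and *Ptprn2* stood 0.39 and 0.37 lower. Heat shock genes were higher in 10 of 17 cases, *Hspa1a* by 0.51 and *Dnajb1* by 0.34, corticosteroid and clock genes in 7 of 20 with *Sgk1* 0.34 higher, and oxidative phosphorylation genes in 10 of 24, a count that turned to 15 on the deposited scale and 17 with centring on the 75th percentile. With that centring the scaffold and vesicle genes also turned, to 17 of 25 higher. Without monotransgenic replicate 2 of set 3, members of these lists that passed were, beside those already named, *Cacna2d3*, *Dpp10*, *Grp*, *Homer2*, *Hspa1a*, *Marcksl1*, *Mcm6*, *Ociad2*, *Pou3f1*, *Ptprc*, *Sox11*, *Fosl2* and *Inhba*. Without replicate 2 of experiment 2, *Bok*, *Dpp10*, *Mcm6* and *Pou3f1* passed.

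**Figure D5:**
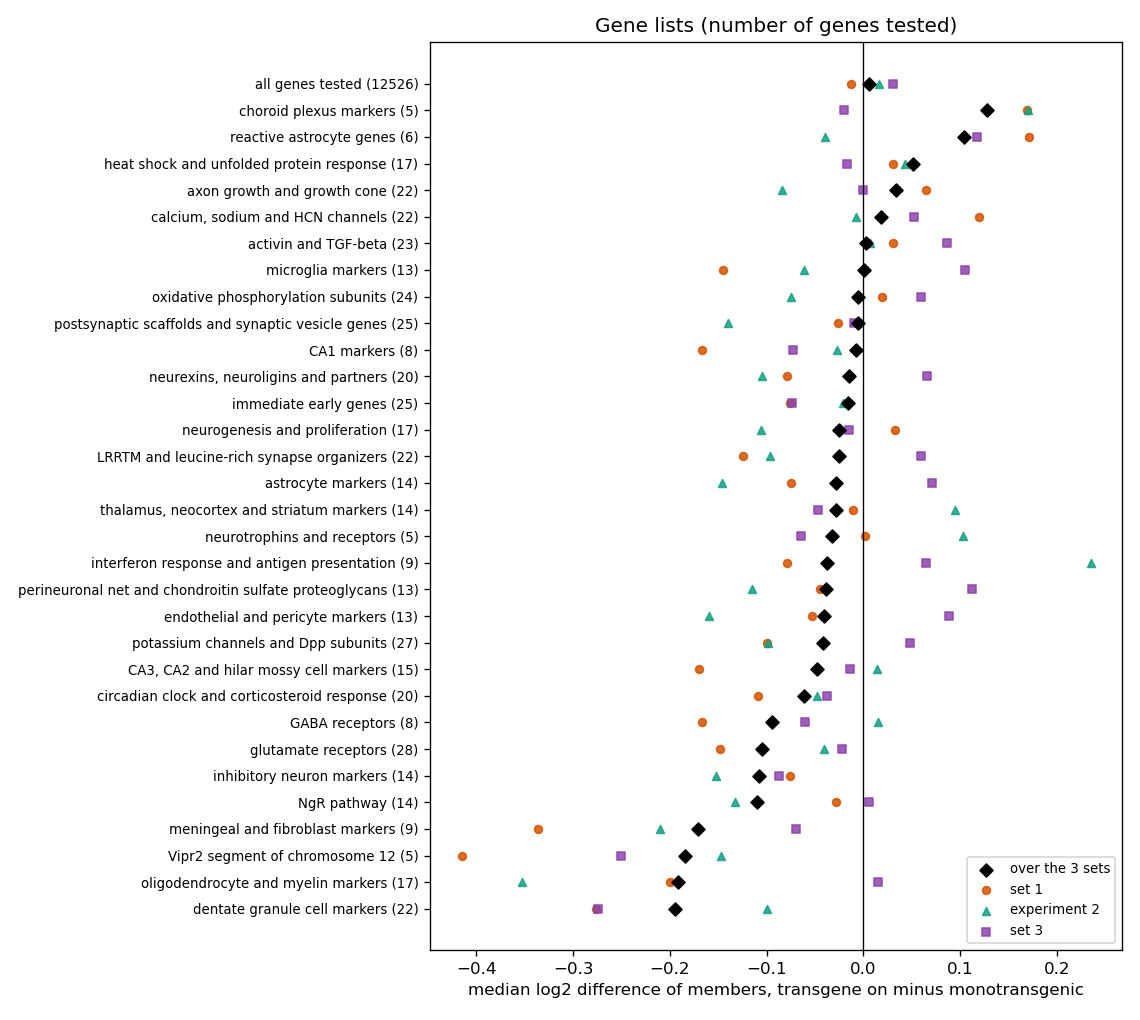
Median log2 difference, transgene on minus monotransgenic, of the measured members of each gene list in each set (coloured symbols) and over the 3 sets (black diamonds), with all genes tested at the top. Dentate granule cell, oligodendrocyte, *Vipr2* segment and meningeal lists lie lowest, between −0.20 and −0.17, and the oligodendrocyte list is at 0.02 in set 3.

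Whether a difference itself varied between the sets was tested with the interaction of set and transgene status. No gene passed (0%), while 671 (5.36%) had an unadjusted p under 0.05, and the lowest adjusted p was 0.327. The gene with that value, *Gtpbp6*, stood 0.14, −1.63 and 0.04 from its monotransgenic arrays in set 1, experiment 2 and set 3, at a mean log2 level of 5.73. *Tgm2*, a transglutaminase gene, stood at −0.78, −0.19 and 0.58. Pairwise differences between sets did not pass either, with *Klf10* 1.34 lower and *Upk1b* 2.15 higher in experiment 2 than in set 1 (adjusted p = 0.436 and 0.532). The interaction p of *Rtn4r*, *Lrrtm1* and *Bcr* was 0.602, 0.37 and 0.145 before adjustment, which does not show that their differences were equal.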

How the data were processed

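The deposited values were linear intensities of 45101 probe sets of an Affymetrix mouse array, which the authors had scaled: on each array the mean without the lowest and highest 2% was 150, as found from the values. No source used here names the tool that made them, and no detection calls were used. Genes were named from the platform annotation: 34945 probe sets had 1 symbol, 932 several and 9160 none, and 64 were controls. Only those with 1 symbol were used, 34741 of them with the symbol updated through the Entrez number.

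Computed here were log2(intensity + 16), quantile normalization over the 18 arrays, removal of probe sets below the upper 60% by mean (log2 limit 4.89), and for each gene the probe set of highest mean. limma 3.58.1 in R 4.3.3 was fitted with set as a block (14 residual degrees of freedom) and variances moderated along a trend in level, with Benjamini-Hochberg adjustment over 12526 genes at 0.05. A fit with 6 groups gave the differences within sets and the interaction. The procedure was tested on simulated data.

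Members and gene lists were chosen with earlier results of these data known. The named genes were *Rtn4r*, those past the threshold, up to 10 in each direction that did not overlap in any set, filled by lowest p to 10, the 4 of lowest p in each of 32 lists, and up to 8 of the interaction test. Others are said to be chosen after their values were seen. The alternatives covered the pseudocount, filter, scaling, probe set choice, weights, the diet arrays, single arrays and whole sets.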

Additional observations from a re-analysis of the deposited data

Results flagged for a closer look

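The 3 arrays of set 1 bitransgenic mice on a doxycycline diet were outside the comparison, and in 3 of the 11 named genes that stood higher with the transgene on their signal lay above every monotransgenic array of set 1, as it did in 7.21% of all genes. *Zdhhc22* had a mean intensity of 282 on the diet arrays, which ran from 262 to 301, against 109 to 224 in monotransgenic mice. *Gdap2* averaged 507 on the diet arrays (470 to 564), against 396 to 420. *Blmh* averaged 3460 (3335 to 3647), against 2989 to 3306. Among the 10 named genes that stood lower, 6 had all diet arrays below the monotransgenic arrays of set 1: *Bcr*, *Igfbp5*, *Zcchc7*, *Ogn*, *Tcerg1l* and *2010204K13Rik*. Over all genes 7.3% had that order. In 4 of the 6 (*Igfbp5*, *Zcchc7*, *Ogn* and *2010204K13Rik*) the diet arrays overlapped the arrays after removal, and for *Ogn* they ran from 8.54 to 26.8, against 11.7 to 26.8 after removal. The diet arrays of *Bcr* had 375, 430 and 456, between the arrays after doxycycline removal and the monotransgenic ones. Those of *Rtn4r* had 111, 87.0 and 73.1 and those of *Lrrtm1* 1527, 1403 and 1468, which is the level of the monotransgenic mice and apart from the mice after removal. This comparison shares the monotransgenic arrays of set 1 with the report and has no test. The named genes were chosen by differences from those arrays, so shares above those of all genes follow in part from the choice.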

How the results depend on the processing

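*Rtn4r*, *Lrrtm1* and *Bcr* made up the 3 calls. Their number was 7 on the deposited scale (3 higher, 4 lower), 9 with the diet arrays in the fit (3 and 6), 5 with the title prefix as a factor in set 3 (2 and 3), 556 with array weights (308 and 248), 44 without the 2 arrays of highest beta-actin ratio (28 and 16), 58 without experiment 2 (35 and 23), 1 without set 3 (1 and 0) and 28 at a threshold of 0.1. Each of these counts held all 3 genes except that without set 3, where *Rtn4r* stood 2.19 higher at an adjusted p of 0.0504. Leaving out 1 array gave 2 to 204 genes, and the counts of 23, 78 and 204 came from leaving out monotransgenic replicates 1 and 2 of experiment 2 and 2 of set 3. The cause was not tested. *Bcr* also lost its call with centring on the 75th percentile (adjusted p = 0.0596), with the mean of its probe sets (−0.38, 0.12) and without set 1 (0.866). The interaction count of 0 became 2 over all probe sets, 25 with array weights and 13 without the 2 arrays of highest beta-actin ratio, and stayed at 0 in the fits without 1 array. The share of genes with one sign in all sets was 28.6% to 31.5% over 6 other settings of pseudocount, filter and scaling, and no named gene reversed. Fits without the 3 monotransgenic arrays and the list values without experiment 2 were chosen for display after seeing the data. No paired analysis was possible because over the 3 sets the replicate numbers only follow the order of deposit. In set 3 title prefixes are shared by arrays of both groups, and the fit with that prefix as a factor gave the 5 calls above.

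With 3 arrays a group, a gene's standard error over the sets had a median of 0.12, and dim genes near the filter limit have uncertain differences. The experiment 2 arrays spread most and carried the highest beta-actin ratios, though not the highest Gapdh ratios. The monotransgenic arrays of 2 sets split into separate levels for many genes. The sets also differ in sex, and set 1 and experiment 2 in treatment.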
